A study of Homo sapiens with 18 samples.

Results

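The mitochondrial respiratory chain is built mostly from proteins that the nuclear genome encodes, and its nuclear-encoded subunit genes were followed here across 3 human melanoma cell lines that overexpressed the transcription factor MAFG or green fluorescent protein (GFP). The members were the protein-coding genes whose symbols begin with NDUFA, NDUFB, NDUFC, NDUFS or NDUFV and a number, SDHA to SDHD, UQCR, COX4 to COX8 and ATP5. The rule used names alone and took 87 of the 58870 genes in the table, 36 of complex I, 4 of complex II, 9 of complex III, 18 of complex IV and 20 of complex V. NDUFA4 is counted with complex IV, where its protein is found, although it was named for complex I. The members lie on 22 chromosomes.

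Complex I (NADH dehydrogenase) and complex II (succinate dehydrogenase) pass electrons from NADH and succinate to ubiquinone, complex III passes them to cytochrome c, and complex IV (cytochrome c oxidase) passes them to oxygen. Complexes I, III and IV pump protons across the inner mitochondrial membrane, and complex V, the ATP synthase, lets them flow back through a rotating ring and makes ATP. Mitochondrial DNA encodes the membrane core of complex I, cytochrome b of complex III, the subunits of complex IV that hold its haem and copper and a pair of membrane subunits of complex V, while complex II is nuclear throughout. In melanoma the coactivator PPARGC1A (PGC-1α), whose gene is a known target of the melanocyte lineage factor MITF, is known to raise the respiratory chain genes in a subset of tumours and lines.

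RNA of WM164, SKMEL28 and A375 cells was sequenced with 3 libraries for each of the 6 groups, 18 in all. In each line 1 group carried MAFG and the other carried GFP. Per the study's methods, both came from a lentiviral vector with a constitutive EF1α promoter, the MAFG protein was tagged, the cells were selected with blasticidin, and no line was stated to be a clone, so every library, controls included, comes from transduced and selected cells. Nothing in the labels says that the 3 libraries of a group came from separate cultures, so the p-values below measure the spread between these libraries, which may be technical. The cells were sequenced in bulk, where fewer cells of a kind and less RNA per cell cannot be told apart.

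Libraries held between 20122172 and 39025042 counts with a median of 31061375. The MAFG gene itself stood at 24.2, 27.1 and 21.7 CPM (counts relative to the scaled library total) in the WM164 GFP libraries and at 52.9, 52.4 and 45 CPM in the MAFG libraries, a log2 fold change of 1.04 ± 0.09 (SE). It also rose in SKMEL28 (0.64 ± 0.10). In A375 its values of 26.3, 27.3 and 36.5 CPM with GFP and 60.3, 53.8 and 42.8 CPM with MAFG did not overlap, but the adjusted p was 0.0655. WM164 and SKMEL28 expressed the 7 melanocytic markers (at least 1366 counts in every library for each), whereas A375 had 0 counts of TYR and MLANA and at most 1 of DCT. KRT1 and CD3E were at 0 counts in every library and PTPRC reached at most 1. CD68, an immune marker by list, was present in every library with 1479 to 11363 counts.

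CPM were scaled by TMM (trimmed mean of M values) over the 6 libraries of a line, and are used between libraries of 1 gene. TPM, the deposited transcript abundances, which divide by length, are used between genes. A member was called higher or lower at a Benjamini-Hochberg adjusted p of at most 0.05 over all genes tested, from edgeR's quasi-likelihood test fitted in each line on its own. Log2 fold changes are MAFG against GFP and are given ± SE. Of the 87 members, 47 have an exon that overlaps another gene (28 on the same strand, 32 on the opposite strand), and the strand setting of the counting is not given in the sources used here, so reads of those members may include a neighbour's. Among the members described with their libraries, NDUFS7, UQCR10, COX6C, COX4I1, NDUFB3, ATP5PF and ATP5IF1 have an opposite-strand partner, and UQCR11, COX8A, COX6A1, COX7C, SDHA and ATP5MC2 have a same-strand one.

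Per length, accessory subunits lay at both ends of the range of levels, and abundance was not compared by subunit size. In the GFP libraries of WM164 the median TPM was 42.7 over the 36 complex I genes, 24.1 over complex II and 53.8 over complex III. Over members with a mean of at least 1 TPM, it was 125 in complex IV (12 of 18) and 110 in complex V (18 of 20). UQCRH, the hinge protein of complex III, stood at 379 ± 27.4 TPM in WM164 GFP cells, 185 ± 16.2 in SKMEL28 and 310 ± 71.6 in A375 (mean ± SD, n = 3). ATP5MF, the f subunit of the ATP synthase membrane part, reached 409 ± 10.1 TPM in A375 GFP cells. At the other end, complex I's NDUFB6 stood at 6.74 TPM in WM164 and 5.68 TPM in SKMEL28.

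The tissue isoforms of complex IV were nearly silent. COX4I2 (lung), COX6A2 and COX7A1 (heart and skeletal muscle), and COX7B2 and COX8C (testis) had 0 counts in all 18 libraries, where a count of 0 allows up to 3 counts per library (counting error only). Their ubiquitous partners were abundant, with COX4I1 at 263 ± 19.5 TPM and COX6A1 at 126 ± 5.47 TPM in WM164 GFP cells. COX6B2, the testis isoform of subunit 6B, was detected in WM164 alone above that floor in every library, at 0.304, 0.751 and 0.448 CPM with GFP and 0.529, 0.489 and 0.553 CPM with MAFG. COX6B1 stood at 125, 102 and 110 CPM in the same GFP libraries. UQCRHL, a near-copy of UQCRH, stood at 3.56 ± 0.559 TPM in WM164 GFP cells, and reads of the pair may have been split between them. The silent isoforms and ATP5MGL, a copy of ATP5MG with at most 22 counts in a library, did not pass the filter on low counts in any line, and COX6B2 passed it in WM164 alone, which left 81 members tested in WM164, 80 in SKMEL28 and 80 in A375.

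MAFG against GFP in WM164 asked which subunit genes respond in a melanocytic line. Of 81 members tested, 42 were lower with MAFG, 1 was higher and 38 were not called, against 15.6% of all 15919 genes tested called lower and 16.2% called higher. With all 18 libraries in 1 model, 22 were lower and 0 higher. The members were measured more precisely than most genes, so small changes were easier to call in them. Their median SE was 0.07 beside 0.11 over all genes tested, and their median of mean counts 1925 beside 585 over protein-coding genes tested. The members' median SE was the smaller in every other comparison too, which limits the shares set beside all genes below. The members' median log2 fold change was -0.23, beside -0.00 over all genes, and the middle of the members lay between -0.36 and -0.12 (quartiles). The changes were small: fitted values ran from -0.52 to 0.28, 74 of 81 were below 0, and no member changed by more than 2-fold, a limit that 6.94% of all genes passed. Members whose exons overlap no other gene showed a like share, with 18 of 35 lower and a median of -0.23. On TPM, where the median of all genes moved by 0.14, the members' median was -0.07, or -0.21 relative to all genes, and only 2 members were called lower; with each library centred on its median the count was 23, all of them among the 42.

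**Figure D1:**
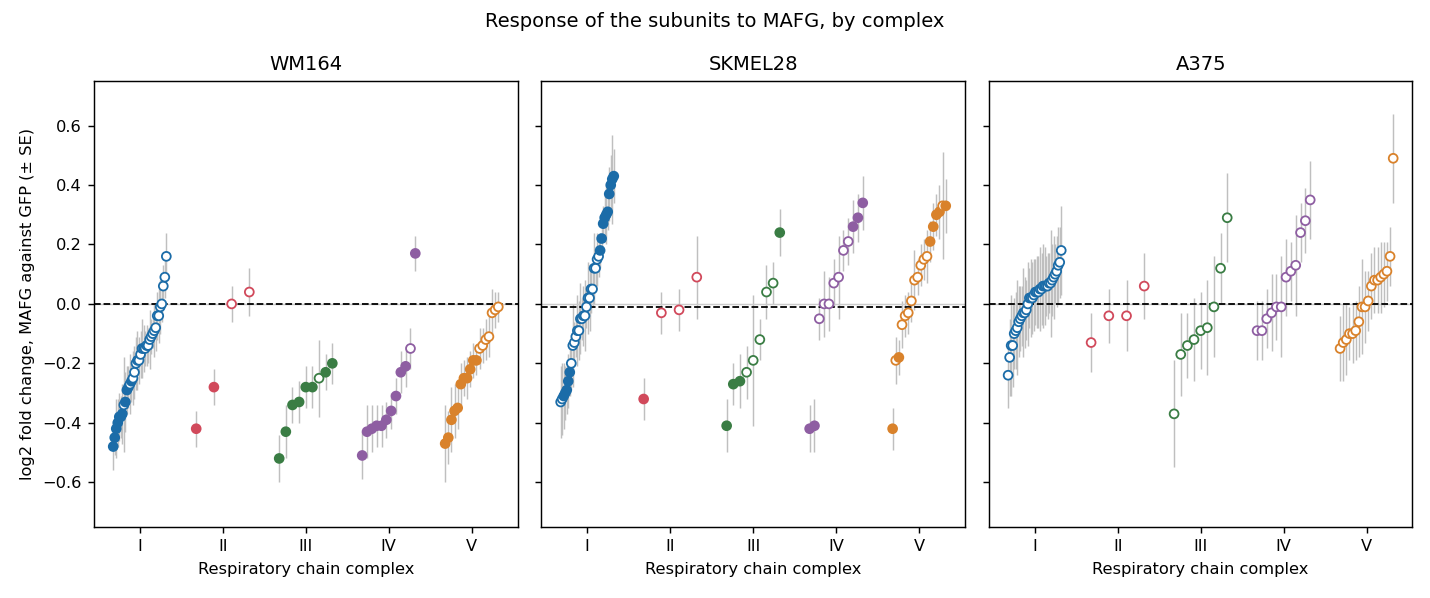
Log2 fold change of MAFG against GFP (y axis, ± SE) for each tested member, by complex I to V (x axis), in 1 panel per line; filled points were called and the dashed line is the median of all genes tested. ATP5MF-PTCD1, COX6B2 and ATP5MGL are left out. In WM164 nearly the whole of complexes III and IV lies below 0, in SKMEL28 members lie on both sides, and in A375 no point is filled.

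By complex, the lower calls in WM164 took in 11 of 36 complex I genes (median -0.18), 2 of 4 in complex II (-0.14), 8 of 9 in complex III (-0.28), 10 of 13 tested in complex IV (-0.36) and 11 of 19 tested in complex V (-0.19). Whether these shares differ between complexes was not tested. Summed over its genes, complex IV took 1309, 1169 and 1263 CPM in the GFP libraries and 991, 992 and 1074 CPM in the MAFG libraries, which did not overlap. Complex III took 1022, 899 and 1009 CPM with GFP and 757, 775 and 824 CPM with MAFG. The sum over all members was 0.621% to 0.671% of all counts with GFP and 0.548% to 0.573% with MAFG.

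Complex I had 1 of 7 core genes and 10 of 29 accessory genes lower, shares whose difference was not tested, and the core genes ran from -0.45 to 0.16. NDUFS7, which carries the last iron-sulfur cluster before ubiquinone (chromosome 19, 1383527 to 1395589, plus strand, GRCh38), was the core gene called lower. It stood at 69.7, 68.4 and 71.5 CPM with GFP and at 49.7, 53.0 and 50.4 CPM with MAFG in WM164, with no overlap. It fell by 26.9% (log2 fold change -0.45 ± 0.06, adjusted p = 1.51e-05), the smallest adjusted p among the members. NDUFV1, which holds the flavin and binds NADH, stood at 59.2, 53.1 and 54.8 CPM with GFP and 58.6, 56.9 and 62.0 CPM with MAFG (0.09 ± 0.07, 95% interval -0.05 to 0.23, not called). NDUFS1, the large iron-sulfur subunit of the same arm, had a log2 fold change of -0.00 ± 0.06 (95% interval -0.13 to 0.12). The accessory subunits held the other 10 lower calls of 29, and NDUFA3 (-0.48 ± 0.08 by the same fit, adjusted p = 2.12e-04) and NDUFC2 (adjusted p = 4.34e-04) were among them.

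Of the 4 complex II genes, the pair that faces the matrix was called and the pair of membrane anchors was not, a difference that was not tested. SDHB, the iron-sulfur subunit (chromosome 1, 17018664 to 17054032, minus strand), stood at 106, 92.3 and 104 CPM with GFP and 72.3, 75 and 78.4 CPM with MAFG, and fell by 25.3% (-0.42 ± 0.06, adjusted p = 5.73e-05). SDHA, the flavoprotein that oxidises succinate, stood at 102, 89.8 and 101 CPM with GFP and 81.5, 79.6 and 79.8 CPM with MAFG (-0.28 ± 0.06, adjusted p = 0.00174), although on uncentred TPM its fitted change was 0.01. The MAFG libraries lay below the GFP libraries for both genes. The membrane anchors SDHC (-0.00 ± 0.06) and SDHD (0.04 ± 0.08) were not called.

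In complex III every member but the copy UQCRHL was lower. UQCR10, a small accessory subunit (chromosome 22, 29767369 to 29770413, plus strand), stood at 63.5, 53.4 and 57.5 CPM with GFP and at 37.3, 40.8 and 43.4 CPM with MAFG. Its groups did not overlap, and it fell by 30.4% (-0.52 ± 0.08, adjusted p = 4.94e-05). UQCRFS1, the Rieske iron-sulfur protein that takes electrons from ubiquinol, stood at 34.2, 30.5 and 39.3 CPM with GFP and 26.2, 26 and 24.8 CPM with MAFG (-0.43 ± 0.09, adjusted p = 0.00112). UQCRC1, a core protein of the matrix side, stood at 128, 106 and 113 CPM with GFP and 99.3, 96.4 and 89.0 CPM with MAFG (-0.28 ± 0.07, adjusted p = 0.00371).

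Complex IV held both the lowest median and the 1 member that was higher. COX6C, a small membrane subunit, stood at 44.8, 39.9 and 46.9 CPM with GFP and 29.4, 30.0 and 33.0 CPM with MAFG, and fell by 29.8% (-0.51 ± 0.08, adjusted p = 8.05e-05). COX5A, a matrix-side subunit (chromosome 15, 74919791 to 74938083, minus strand), stood at 170, 158 and 166 CPM with GFP and 120, 121 and 137 CPM with MAFG (-0.39 ± 0.06, adjusted p = 9.44e-05). Neither gene's groups overlapped. COX4I1, the largest nuclear subunit, went from 210, 191 and 210 CPM to 158, 160 and 175 CPM (-0.31 ± 0.06, adjusted p = 5.18e-04). COX7A2L, which joins complexes III and IV in supercomplexes, went from 51.5, 45.2 and 47.6 CPM to 33.9, 39.2 and 34.9 CPM (-0.42 ± 0.08, adjusted p = 4.07e-04).

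NDUFA4 (chromosome 7, 10931943 to 10940153, minus strand) went the other way. It stood at 102, 94.8 and 109 CPM with GFP and at 112, 110 and 123 CPM with MAFG (0.17 ± 0.06, adjusted p = 0.0483). The lowest MAFG library lay just above the highest GFP library. The call was lost with no filter on low counts, in the model of all 18 libraries, on centred TPM and when WM164 GFP replicate 1 or any 1 of the 3 WM164 MAFG libraries was left out, so the call lies at the threshold.

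In complex V the lower calls are given by part of the enzyme, and differences between the parts were not tested. All 3 genes for the c subunit of the rotating ring (ATP5MC1, ATP5MC2, ATP5MC3), both genes of the catalytic head (ATP5F1A, ATP5F1B), 2 of 4 of the peripheral stalk and 3 of 5 of the membrane accessory subunits were lower, and 0 of 3 of the central stalk (ATP5F1C, ATP5F1D, ATP5F1E; median -0.03). ATP5F1B, the catalytic β subunit, stood at 327, 335 and 319 CPM with GFP and 288, 302 and 270 CPM with MAFG (-0.19 ± 0.05, adjusted p = 0.0124). ATP5F1A, its α partner, stood at 167, 178 and 184 CPM with GFP and 150, 162 and 151 CPM with MAFG (-0.19 ± 0.06, adjusted p = 0.0134). ATP5IF1, the factor that blocks the enzyme from running backwards, went from 147, 109 and 118 CPM to 87.7, 85.7 and 99.9 CPM (-0.45 ± 0.09, adjusted p = 7.49e-04). The head genes thus changed by less than the inhibitor's gene, a difference that was not tested.

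**Figure D2:**
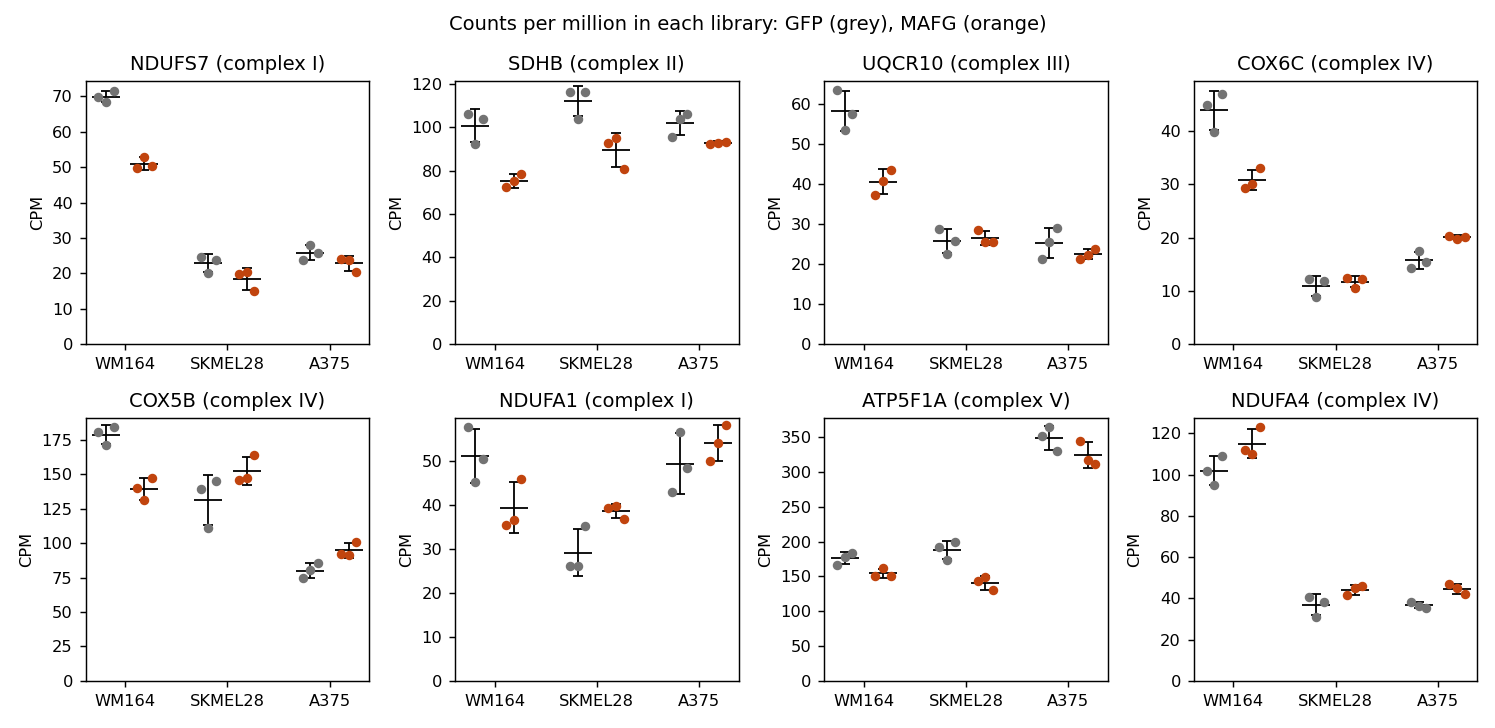
CPM (y axis, from 0) in each library of 8 members, with GFP libraries in grey, MAFG libraries in orange and bars for the mean ± SD of 3 libraries per group. NDUFS7, SDHB, UQCR10 and COX6C are lower with MAFG in WM164, NDUFA1 and COX5B shift in opposite directions in WM164 and SKMEL28, and NDUFA4 is the member called higher in both of those lines.

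Nuclear respiratory factor 1 (NRF1), ETS-family factors such as GABPA and the factor YY1 are known regulators of respiratory chain promoters, and the letters of their core motifs were looked for in RefSeq promoters (GRCh38.p14), 250 bases before to 50 bases after each start, on both strands. Of the 87 members, 69 had a promoter entry. The NRF1 core CGCATGCG was in 15.9% of those 69 and 2.46% of all 27305 genes with an entry, the ETS core CCGGAAG in 30.4% and 12.2%, and the YY1 core AAGATGG in 26.1% and 7.11%. At least 1 of the 3 was in 40 members (58.0%) and 19.8% of all genes. TCACGTG, 1 form of the sequence that MITF binds, was in 2 members (ATP5ME and NDUFA7, 2.90%) and 4.49% of all genes. Other forms, such as TCATGTG, were not looked for, so these counts do not cover all MITF sequences. The pattern TGACNNNGC, a core of elements that small MAF proteins such as MAFG bind together with a partner protein, was in 12 members (17.4%) and 16.1% of all genes.

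Of the members lower in WM164 that had an entry, 16 of 35 held the ETS core, and of the members not called there 5 of 31 did. The NRF1 core was in 5 of 35 and 6 of 31, and the YY1 core in 9 of 35 and 9 of 31. These are matches of letters in a fixed window and were not tested. The stretches below, 10 bases on each side of a match, are shown for members whose values carry the comparisons, with the core in capitals and 5′ to 3′ on the gene's strand; CTTCCGG is the ETS core read on the other strand. The first 4 hold an ETS core (SDHB at chr1:17054144-17054170, minus strand, 122 bases before the start; COX5B at chr2:97646015-97646041, plus, 31 bases; COX8A at chr11:63974592-63974618, plus, 12 bases; NDUFA1 at chrX:119871775-119871801, plus, 41 bases). The next 2 hold an NRF1 core (NDUFS7 at chr19:1383823-1383850, plus, 67 bases; ATP5MC2 at chr12:53676107-53676134, minus, 34 bases) and the last a YY1 core (ATP5PF at chr21:25735095-25735121, minus, 51 bases).
SDHB: acccgggaaaCCGGAAGccgcctccca
COX5B: aagcccgcccCCGGAAGtccctcctgt
COX8A: agctccagaaCTTCCGGccagcgcagc
NDUFA1: tccgtcgcttCTTCCGGagccgtacgt
NDUFS7: ttccggtttcCGCATGCGctccgagccg
ATP5MC2: gcccgggtcaCGCATGCGctgagccttc
ATP5PF: aggcgaagaaAAGATGGcggaggctgt

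SKMEL28 is the other melanocytic line, and there the members went both ways. Of 80 tested, 20 were higher with MAFG, 13 lower and 47 not called, against 14.6% of 15523 genes called higher and 15.3% called lower. The share of members called lower was near that of all genes. With all 18 libraries in 1 model, 7 were higher and 7 lower. Their median log2 fold change was 0.02 beside -0.01 over all genes, and on TPM both medians moved below 0 together (-0.13 for the members, -0.14 for all genes), with 1 member higher and 19 lower there and 7 higher and 4 lower after centring. Complex I had 10 genes higher and 5 lower, complex II 0 and 1, complex III 1 and 3, complex IV 3 and 2, and complex V 6 and 2. Beyond a 2-fold change, which 4.74% of all genes passed, lay 1 member, ATP5MF-PTCD1. That gene is a readthrough of ATP5MF into PTCD1 that shares exons with both, and its 0.987, 2.43 and 1.52 CPM with GFP and 5.49, 3.39 and 3.41 CPM with MAFG (1.35 ± 0.31, adjusted p = 0.00363) cannot be told apart from reads of its partners.

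In complex I, 8 of 29 accessory genes and 2 of 7 core genes were higher in SKMEL28. NDUFV3, an accessory subunit of the NADH arm (chromosome 21, 42879644 to 42913304, plus strand), stood at 50.2, 50.3 and 47.3 CPM with GFP and 60.4, 63.2 and 59.0 CPM with MAFG (0.31 ± 0.06, adjusted p = 0.00158). NDUFB3 stood at 90.8, 79.1 and 111 CPM with GFP and 117, 127 and 134 CPM with MAFG (0.43 ± 0.09, adjusted p = 0.00245). The 3 MAFG libraries were the 3 highest for each of these genes. ATP5PF, the F6 subunit of the peripheral stalk, went from 82.1, 78.2 and 91.5 CPM to 99.3, 103 and 109 CPM (0.30 ± 0.07, adjusted p = 0.00267). NDUFA10, an accessory subunit of complex I, went from 81.5, 75.6 and 77.5 CPM to 92.1, 91.1 and 99.3 CPM (0.27 ± 0.06, adjusted p = 0.00310).

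The members that fell in SKMEL28, whose share was near that of all genes, included the head of the ATP synthase and the iron-sulfur subunits of complexes II and III. ATP5F1A stood at 192, 174 and 199 CPM with GFP and 144, 149 and 130 CPM with MAFG, and fell by 25.2% (-0.42 ± 0.07, adjusted p = 1.89e-04). COX6B1, a subunit on the side where cytochrome c docks (chromosome 19, 35648323 to 35658782, plus strand), stood at 102, 82.4 and 103 CPM with GFP and 74.6, 73.6 and 67.1 CPM with MAFG (-0.42 ± 0.08, adjusted p = 8.31e-04). Neither gene's groups overlapped. SDHB went from 116, 104 and 116 CPM to 92.9, 94.9 and 80.6 CPM (-0.32 ± 0.07, adjusted p = 0.00218). UQCR11, an accessory subunit of complex III, went from 23.8, 21.3 and 23.6 CPM to 18.1, 16.9 and 16.9 CPM (-0.41 ± 0.09, adjusted p = 0.00245), and COX8A from 36.0, 31.8 and 32.5 CPM to 28.4, 23.7 and 23.3 CPM (-0.41 ± 0.09, adjusted p = 0.00267).

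Among the catalytic members in SKMEL28, the pair that binds NADH and relays its electrons moved apart. NDUFS1 was higher (122, 114 and 119 CPM with GFP, 138, 128 and 135 CPM with MAFG, 0.18 ± 0.06, adjusted p = 0.0279) and NDUFV1 lower (37.0, 33.1 and 36.9 CPM with GFP, 31.5, 29.2 and 30.3 CPM with MAFG, -0.23 ± 0.08, adjusted p = 0.0302). UQCRFS1 (-0.27 ± 0.07, adjusted p = 0.00793), UQCRC1 (-0.26 ± 0.09, adjusted p = 0.0298) and ATP5F1B (-0.18 ± 0.06, adjusted p = 0.0424) were lower, and ATP5F1B's fitted change was 0.01 on centred TPM. The NDUFS1, NDUFV1 and UQCRC1 calls did not hold once a trend on GC content and length was removed. SDHA (-0.02 ± 0.07) and COX4I1 (0.18 ± 0.07, adjusted p = 0.0621) were not called, nor was ATP5IF1 (-0.07 ± 0.08). The number of lower members was 6 without SKMEL28 GFP replicate 1 and 8 without GFP replicate 3 or MAFG replicate 3, and the number of higher members was 12 without GFP replicate 2.

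In A375, a line without the pigmentation markers, no member was called in 80 tested, where 0.780% of 15779 genes were higher, 0.0634% lower and 0.665% changed more than 2-fold. DESeq2 also called 0. At an unadjusted p under 0.05 edgeR gave 5 members, 4 higher (ATP5MD, COX5B, COX6C, NDUFA4) and 1 lower (NDUFS3), beside 6.26% of all genes. The members' median was 0.01, with quartiles of -0.08 and 0.09, so most fitted changes were near 0. ATP5MD, the DAPIT subunit of the membrane part, had the smallest adjusted p (0.371), at 43.3, 51.4 and 47.4 CPM with GFP and 51.7, 69.9 and 77.4 CPM with MAFG (0.49 ± 0.15). It was called with no filter on low counts (0.48, adjusted p = 0.0242) and without A375 MAFG replicate 1 (0.64, adjusted p = 0.00434).

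The members' median SE was 0.12 in A375, against 0.07 in WM164 and 0.08 in SKMEL28, so changes of the size seen in WM164 were harder to detect there. COX6C stood at 14.3, 17.5 and 15.5 CPM with GFP and 20.4, 19.8 and 20.2 CPM with MAFG, with no overlap, a fitted 0.35 ± 0.13 and an adjusted p of 0.545. NDUFS7 had a fitted -0.18 with a 95% interval of -0.46 to 0.10, which reaches the value fitted in WM164. SDHB's interval was -0.35 to 0.08 and COX5A's -0.30 to 0.13, and these did not reach the WM164 values of -0.42 and -0.39. Those WM164 values have an SE of their own, which this leaves out. The test of the difference in response between WM164 and A375 called neither gene.

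The 3 lines were compared in 1 model of all 18 libraries, in which each contrast is 1 line's log2 fold change minus another's. Between WM164 and SKMEL28, 19 of 82 members had the lower response in WM164 and 1, NDUFS3, the higher, against 6.32% and 7.39% of 18767 genes. Leaving out 1 library moved the number of differing members from 20 to between 9 (without SKMEL28 GFP replicate 2) and 29 (without A375 MAFG replicate 1). The median difference was -0.24, beside 0.02 over all genes. On uncentred TPM, where the median of all genes was 0.26, the direction of the calls turned (4 members higher, 0 lower, median 0.09 or -0.17 relative to all genes), and after centring 1 was higher and 12 lower. By complex the differences took in 1 higher and 5 lower of complex I, 0 of complex II, 2 of complex III, 7 of complex IV and 5 of complex V.

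COX5B, a zinc-binding subunit of complex IV, had the smallest adjusted p of these differences. In SKMEL28 it stood at 139, 111 and 145 CPM with GFP and 146, 147 and 164 CPM with MAFG (0.21 ± 0.08, not called), and in WM164 at 181, 171 and 184 CPM with GFP and 140, 131 and 147 CPM with MAFG (-0.36 ± 0.06, adjusted p = 1.00e-04). The MAFG libraries lay above the GFP libraries in SKMEL28 and below them in WM164, a difference of -0.57 ± 0.13 (adjusted p = 0.00382). NDUFA1, a small complex I subunit on the X chromosome, was called in opposite directions. It stood at 57.8, 45.4 and 50.5 CPM with GFP and 35.5, 36.7 and 46.1 CPM with MAFG in WM164, where the groups overlapped, and at 26.2, 26.1 and 35.4 CPM with GFP and 39.3, 39.9 and 36.8 CPM with MAFG in SKMEL28. Its difference was -0.78 ± 0.18 (adjusted p = 0.00610). COX4I1 stood at 87.2, 76.6 and 87.9 CPM with GFP and 93.5, 102 and 89.9 CPM with MAFG in SKMEL28, a difference of -0.49 ± 0.12 from WM164 (adjusted p = 0.00744).

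Side by side, 6 members were lower in WM164 and higher in SKMEL28 (ATP5MC3, ATP5MF, COX6A1, COX7B, NDUFA1 and UQCRB), and the response of each differed between the lines in the 18-library model. In both lines 10 members were lower (ATP5F1A, ATP5F1B, COX6B1, COX8A, NDUFA3, NDUFS5, SDHB, UQCR11, UQCRC1 and UQCRFS1), and 1 was higher (NDUFA4). The response of none of those 11 was called different between the lines. These sets were picked by their calls in the same libraries, so the difference test is not an independent check of them. A further 26 were lower in WM164 and not called in SKMEL28, 13 were higher and 3 lower in SKMEL28 alone, and 21 were called in neither. COX7B, a membrane subunit of complex IV, illustrates the first set, at 50.8, 39.4 and 41.3 CPM with GFP and 31.2, 34.4 and 32.2 CPM with MAFG in WM164, and 22.8, 20.2 and 25.3 CPM with GFP and 30.4, 27.4 and 29.1 CPM with MAFG in SKMEL28.

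**Figure D3:**
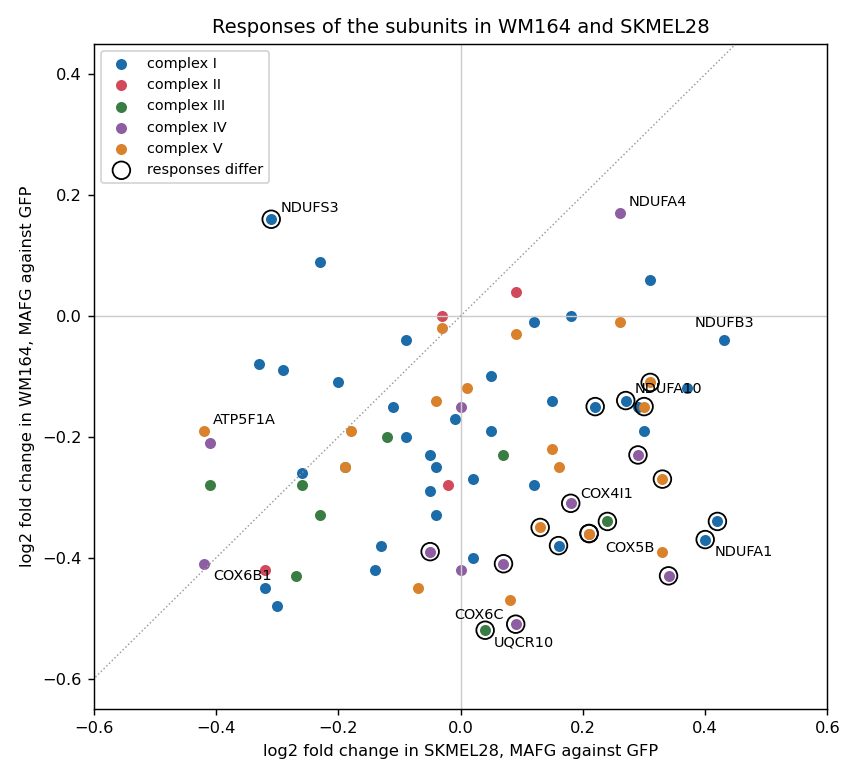
Log2 fold change of MAFG against GFP in SKMEL28 (x axis) and WM164 (y axis) for the members tested in both lines, coloured by complex. ATP5MF-PTCD1 is left out. Circled points differed between the lines in the 18-library model and the dotted line marks equal changes. The circled points lie almost all below the line, 19 with the lower response in WM164 and 1 with the higher.

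Against A375, 10 members had the lower response in WM164 and 0 the higher, beside 4.69% and 4.52% of all genes, with a median difference of -0.22. Leaving out 1 library gave 4 to 14 differing members, with 4 when WM164 GFP replicate 1, WM164 MAFG replicate 1 or A375 GFP replicate 1 was left out. The 10 were NDUFA2, NDUFC1, NDUFC2, UQCRB, COX5B, COX6C, COX7C, ATP5PD, ATP5IF1 and ATP5MD. COX6C had a difference of -0.87 ± 0.16 (adjusted p = 0.00131). COX5B stood at 74.4, 80.2 and 85.4 CPM with GFP and 91.9, 91.6 and 101 CPM with MAFG in A375, and its difference was -0.61 ± 0.13 (adjusted p = 0.00281). COX7C, a small subunit of complex IV (chromosome 5, 86617928 to 86620962, plus strand), stood at 120, 107 and 122 CPM with GFP and 85.6, 80.5 and 95.3 CPM with MAFG in WM164, and at 102, 123 and 107 CPM with GFP and 116, 121 and 121 CPM with MAFG in A375 (difference -0.53 ± 0.13, adjusted p = 0.00946). On uncentred TPM 1 member kept a call, with a median of 0.03 that is -0.18 relative to all genes. This contrast and the previous one share the WM164 libraries.

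Between SKMEL28 and A375 the responses of 0 members were called different by edgeR, beside 3.68% of genes higher and 5.83% lower, and 7 members had an unadjusted p under 0.05 (22.9% of all genes did). DESeq2 called 3, with ATP5F1A (-0.30) and COX6B1 (-0.36) lower and ATP5F1C (0.36), the γ subunit of the central stalk, higher in SKMEL28.

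The lines also differed without MAFG. In the GFP libraries, scaled over all 18 libraries, 63 of 82 members were higher in WM164 than in SKMEL28 and 8 lower, against 27.8% and 29.0% of all genes, with a median log2 ratio of 0.72 beside 0.00. On TPM the split was 28 higher and 19 lower, the median 0.19 beside -0.42 over all genes, and after centring 58 and 7. SKMEL28 against A375 had 12 higher and 54 lower (35.3% and 33.3% of all genes; median -0.50 beside 0.06), and this order held on TPM with 10 and 48. WM164 against A375 had 40 higher and 16 lower (36.9% and 34.6% of all genes; median 0.23 beside 0.08), which turned to 15 and 43 on TPM and 23 and 28 after centring, so no order of these 2 lines is given. Nothing in the labels separates the line from its culture or preparation, so these cannot be told apart.

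By complex, on the CPM scale, WM164 against SKMEL28 gave these counts, and differences between complexes were not tested. Complex I had 24 members higher and 7 lower, complex II 3 and 0, complex III 8 and 1, complex IV 12 and 0 of 13, and complex V 16 and 0 of 20, with medians of 0.49, 0.57, 1.19, 1.14 and 0.76. COX6C stood at 47.3, 42.4 and 49.7 CPM in WM164 GFP libraries, 12.8, 9.30 and 12.5 in SKMEL28 and 12.9, 15.8 and 13.9 in A375, a log2 ratio of WM164 to SKMEL28 of 2.0 ± 0.12 (adjusted p = 1.48e-11). UQCR11 stood at 103, 90.3 and 101 CPM in WM164, 24.9, 22.4 and 24.6 in SKMEL28 and 22.6, 19.8 and 20.6 in A375, with log2 ratios of 2.03 ± 0.13 to SKMEL28 and 2.22 ± 0.13 to A375. Both genes were far higher in WM164 and lay close together in the other lines. ATP5MC2, a c subunit gene, was low in SKMEL28 instead, at 35.0, 31.0 and 31.4 CPM against 87.5, 89.6 and 88.6 in WM164 and 76.7, 82.6 and 88.2 in A375 (WM164 to SKMEL28 1.45 ± 0.09).

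NDUFA4 stood at 108, 101 and 115 CPM in WM164 GFP libraries, 42.8, 32.7 and 40.1 in SKMEL28 and 34.7, 32.9 and 31.7 in A375 (WM164 to A375 1.70 ± 0.10, adjusted p = 1.41e-12). NDUFA6, an accessory subunit, stood at 106, 92.2 and 97.6, then 50.0, 46.2 and 53.5, then 29.2, 33.9 and 31.7 CPM in the same order (WM164 to A375 1.64 ± 0.10). The 3 lines did not overlap for NDUFA6. ATP5MG, the g subunit, was highest in A375 at 126, 145 and 155 CPM, against 89.6, 73.3 and 85.1 in WM164 and 44.4, 38.1 and 41.7 in SKMEL28 (SKMEL28 to A375 -1.77 ± 0.10, adjusted p = 1.22e-12).

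A few members were highest in SKMEL28. NDUFS1 stood at 128, 120 and 124 CPM there, 86.0, 84.6 and 91.2 in WM164 and 62.7, 59.3 and 60.3 in A375 (SKMEL28 to A375 1.03 ± 0.07), and NDUFA10 at 85.3, 79.5 and 80.8, 66.6, 68.9 and 69.0, and 36.2, 40.5 and 39.3 (1.08 ± 0.07). Both lie on chromosome 2, at 206114817 to 206159509 and 239892450 to 240025743. On the CPM scale SKMEL28 was the highest line for 10 of 82 members, 4 of them set apart from the next line by the test.

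For some of these members the other genes within 1 Mb differed between the lines in the same way. The 46 tested neighbours of NDUFA6 had a median WM164 to A375 log2 ratio of 1.61, the 10 neighbours of NDUFS1 a SKMEL28 to A375 ratio of 1.26 and the 10 of NDUFA10 a ratio of 1.0. The 35 neighbours of ATP5MG had a median of -1.0, beside its -1.77. The match depended on the pair of lines for some: against SKMEL28 the neighbours of NDUFA6 had a median WM164 ratio of 0.24 beside its 0.98, and the 12 neighbours of COX6C had a median of 0.49 beside its 2.0 against SKMEL28 and 1.28 beside its 1.71 against A375. The 73 neighbours of UQCR11 had WM164 ratios of 0.60 beside its 2.03 against SKMEL28 and 0.48 beside its 2.22 against A375. Against A375 the 2 neighbours of NDUFA4 went the other way, with a median WM164 ratio of -1.90 beside its 1.70. The 56 neighbours of ATP5MC2 had a median WM164 to SKMEL28 ratio of 0.77 beside its 1.45. The part of what neighbouring genes share in these levels was not tested.

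**Figure D4:**
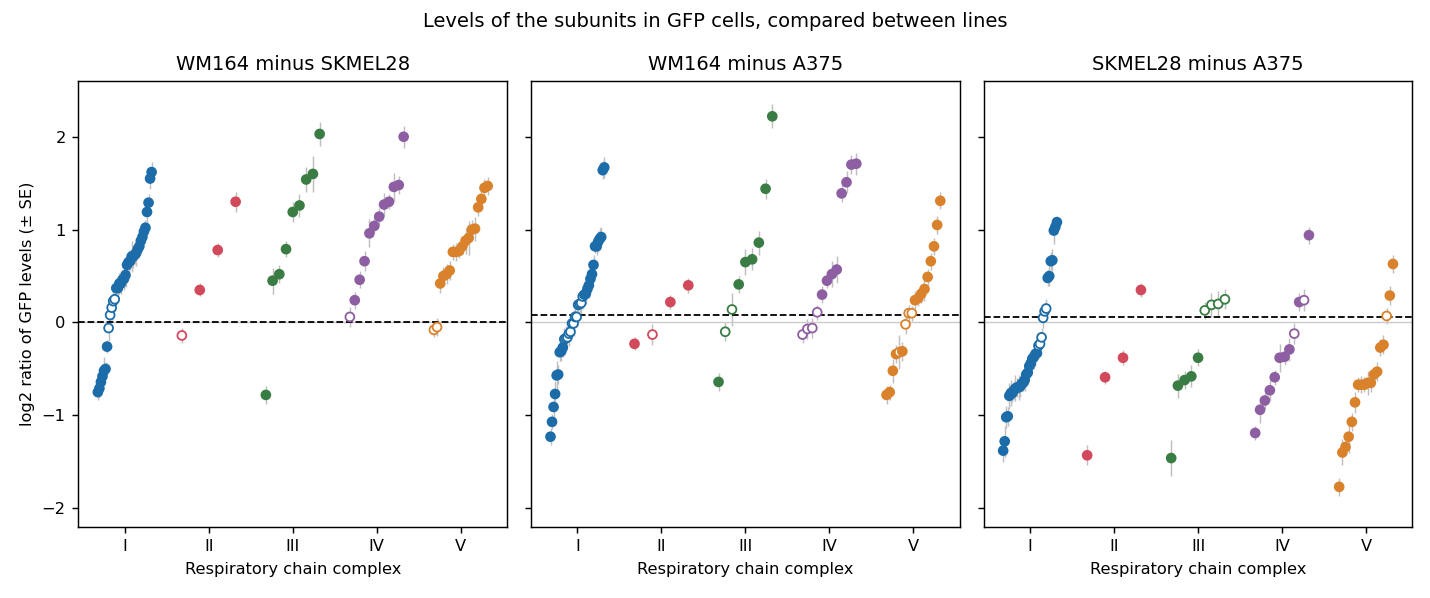
Log2 ratio of the GFP levels of 2 lines (y axis) for the tested members, by complex (x axis), in 1 panel per pair of lines. Filled points were called. ATP5MF-PTCD1, COX6B2 and ATP5MGL are left out. Most members lie above 0 for WM164 against SKMEL28 and below 0 for SKMEL28 against A375, while WM164 against A375 is mixed.

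Of the regulators of these genes, PPARGC1A was abundant in WM164 alone. Its GFP level was 98.0 CPM in WM164, 3.0 in SKMEL28 and 1.27 in A375, a log2 ratio of WM164 to SKMEL28 of 5.03 ± 0.22 (adjusted p = 9.92e-14). With MAFG it was not called in WM164, at 87.1, 92.0 and 98.7 CPM with GFP and 104, 99.1 and 94.8 CPM with MAFG (0.10 ± 0.06, adjusted p = 0.244). MITF, in contrast, stood at 400, 415 and 429 CPM with GFP and 265, 266 and 261 CPM with MAFG in WM164 (-0.65 ± 0.05, adjusted p = 1.55e-08) and fell in SKMEL28 as well (-0.20 ± 0.05, adjusted p = 0.00967). TFAM, which packages and transcribes mitochondrial DNA, rose in SKMEL28 from 40.3, 37.6 and 39.6 CPM to 45.7, 48.5 and 50.7 CPM (0.30 ± 0.07, adjusted p = 0.00352) and was not called in WM164 (-0.06 ± 0.07). Of the regulators on the list, 1 was higher and 1 lower of 15 tested in WM164, 1 and 3 of 14 in SKMEL28, and 0 in A375. TFAM was the 1 higher in SKMEL28. The 3 lower there were POLRMT (-0.47 ± 0.08, adjusted p = 3.27e-04), PPARGC1B (-0.36 ± 0.09, adjusted p = 0.00501) and TFB1M (-0.30 ± 0.10, adjusted p = 0.0246), so genes for mitochondrial transcription went both ways.

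Of the 13 subunits that mitochondrial DNA encodes, 8 were lower in WM164 and 0 higher (median -0.26), in SKMEL28 11 were higher and 0 lower (median 0.41), and in A375 0 were called (median 0.02). The response of 9 was lower in WM164 than in SKMEL28 by the 18-library model. Mitochondrial genes took 27.1% to 27.4% of counts in WM164 GFP libraries and 23.1% to 25.9% with MAFG, 23.7% to 25.4% and 27.3% to 29.1% in SKMEL28, and 13.0% to 15.9% and 12.6% to 16.2% in A375.

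Genes near the chain in function did not all move with it. In WM164 the list of TCA cycle enzymes had 10 of 18 lower and 0 higher (median -0.24), a median like that of the subunits. That list also holds pyruvate dehydrogenase genes (PDHA1, PDHB and DLAT) and pyruvate carboxylase (PC), and PC was 1 of the 10. The 50 assembly factor entries, with SCO2 under 2 of them, had 3 higher and 7 lower (median -0.00). Of the 3 higher, 1 was the second SCO2 entry, with at most 3 counts with GFP and 20 with MAFG. The first SCO2 entry was not called (-0.12 ± 0.22). The 78 mitochondrial ribosomal proteins had 5 higher and 20 lower (median -0.09), the 21 import genes 2 and 3 (0.00), the coenzyme Q and cytochrome c genes 2 and 3 of 16 (-0.13), glycolysis 5 and 7 of 22 (-0.02) and the cytosolic ribosomal proteins 3 and 12 of 82 (-0.03). In SKMEL28 the glycolysis genes had 2 higher and 12 lower of 21 (median -0.23). The TCA cycle list had 3 and 3, with PDHA1 among the higher and PDHB and PC among the lower. The assembly factors had 5 and 1 of 49, the mitochondrial ribosomal proteins 16 and 4, the import genes 6 and 1, the coenzyme Q and cytochrome c genes 2 and 2, and the cytosolic ribosomal proteins 26 and 13. None of these lists had a called gene in A375.

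Markers of growth and lineage moved with the same comparisons. The 16 mitotic genes were lower for 13 and higher for 0 in WM164 (median -0.26), higher for 13 and lower for 0 in SKMEL28 (0.42) and not called in A375, with summed levels of 2533 to 2889 CPM with GFP and 2220 to 2509 with MAFG in WM164, 4836 to 5069 and 6600 to 7052 in SKMEL28, and 4000 to 4270 and 3388 to 4581 in A375. The 7 melanocytic markers summed to 4695 to 5029 CPM with GFP and 2638 to 2767 with MAFG in WM164, to 4789 to 5046 and 4161 to 4387 in SKMEL28, and to 35.3 to 41.6 and 120 to 172 in A375, where SOX10 was the 1 of 3 tested that was called. The part of growth rate and lineage state in the members' changes was not tested.

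**Figure D5:**
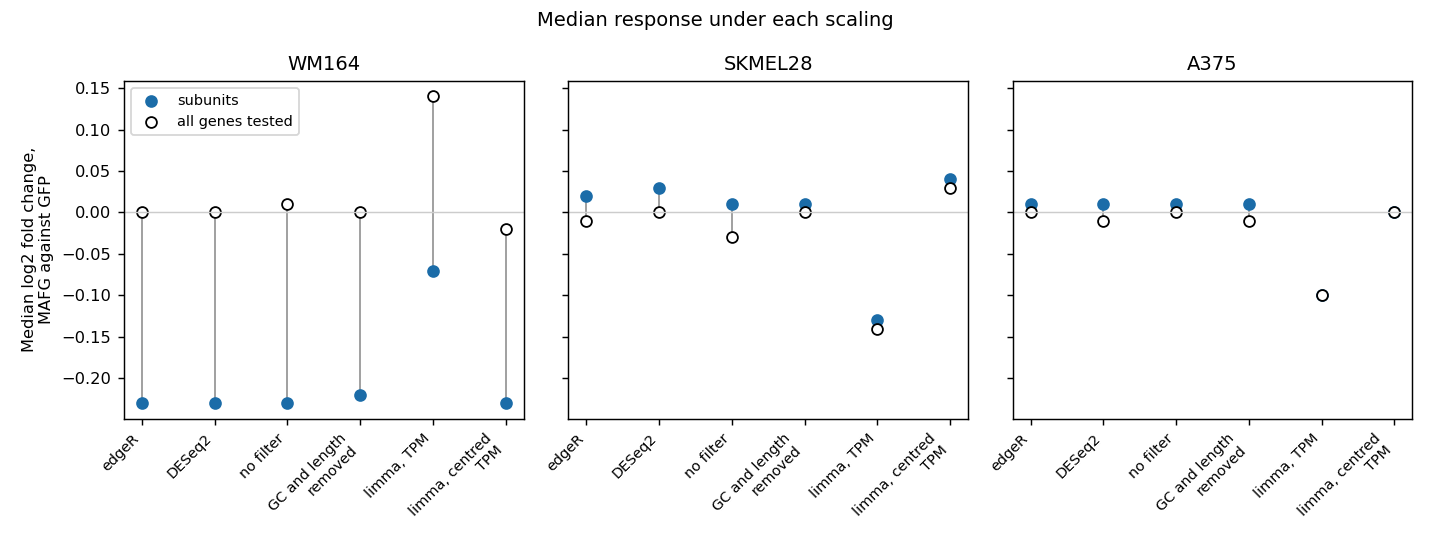
Median log2 fold change of MAFG against GFP (y axis) of the subunit genes and of all genes tested under 6 ways of scaling the data (x axis), in 1 panel per line. The gap between the subunits and all genes stays near -0.2 in WM164 and near 0 in SKMEL28 and A375, while uncentred TPM shifts both medians together, up by 0.14 in WM164 and down by 0.14 in SKMEL28 for all genes.

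Among the members, the change in WM164 was described against 3 features of the gene, over 81 members that share libraries. The correlation of the log2 fold change with log2 exon length was 0.28 (Pearson) and 0.30 (Spearman), with GC content 0.02 and -0.01, and with log2 CPM -0.22 and -0.04. The 42 lower members had a median exon length of 2270 bases and the 38 not called 3267. Genes are not independent replicates, and removing a trend on GC content and length left 44 members lower in WM164, 41 of them among the 42.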

How the data were processed

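RNA-seq of 18 libraries was used. Per the labels and the submitters' processing notes, reads were trimmed with cutadapt 1.8.1 and aligned to GRCh38 with STAR 2.7.7a. The deposited gene counts are whole numbers that were not normalized; the methods name featureCounts on unique reads while the notes list RSEM 1.3.0, and the table does not settle which made them. The authors also deposited TPM, in which mitochondrial genes and small RNAs take large shares (4 small RNAs held 16.5% to 34.2%), so TPM of other genes move with them. The methods and labels name different library kits, with and without strand.

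The members and the comparison lists were chosen with earlier results of these data known. Groups came from the labels. The count table (58870 genes) was tested with edgeR 4.0.16 (R 4.3.3) by quasi-likelihood, with TMM, filterByExpr and Benjamini-Hochberg adjustment over all genes tested, in each line's 6 libraries, and in 1 model of all 18 for differences between lines. A call needed an adjusted p of at most 0.05. Gene positions came from GENCODE 44, which matched 58472 genes (99.3%) and all 87 members. The tests were run on simulated data before use.

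Members given with all their libraries were up to 5 per line and direction with the smallest adjusted p and no overlap of groups, up to 3 per difference between lines, the isoforms and their partners, the catalytic members and ATP5IF1. COX7B, NDUFA3, NDUFC2, ATP5MD, UQCRH and ATP5MF were added after their values were seen. Alternatives were DESeq2 1.42.0, its size factors, no filter, at least 10 counts in every library, all 18 libraries for single-line calls, a replicate block, a GC and length trend, limma 3.58.1 on log2(TPM + 1) and log2(TPM + 0.1) for genes with at least 1 TPM in 3 or more libraries, a fold limit of 2, leaving out each library and, chosen after seeing the data, centred TPM.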

Additional observations from a re-analysis of the deposited data

Results flagged for a closer look

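Responses to MAFG differed between lines, by a test of the difference itself in the 18-library model (edgeR quasi-likelihood, Benjamini-Hochberg adjusted). Between WM164 and SKMEL28 this held for 20 of 82 members, 19 lower and 1 higher in WM164, beside 6.32% and 7.39% of all genes. The differences of log2 fold changes named first were COX5B at -0.57 (adjusted p = 0.00382), NDUFA1 at -0.78 (adjusted p = 0.00610) and COX4I1 at -0.49 (adjusted p = 0.00744). Between WM164 and A375 the responses of 10 of 82 members differed, all lower in WM164, beside 4.69% of all genes lower and 4.52% higher. Named first there were COX6C at -0.87 (adjusted p = 0.00131), COX5B at -0.61 (adjusted p = 0.00281) and COX7C at -0.53 (adjusted p = 0.00946). Leaving out 1 library gave 9 to 29 such members in the first contrast and 4 to 14 in the second. For each member named here the response was lower in WM164. On uncentred TPM the adjusted p was 0.271 for COX5B, 0.0926 for NDUFA1 and 0.381 for COX4I1 in the first contrast, and 0.146 for COX5B and 0.256 for COX7C in the second, whereas COX6C was still called.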

How the results depend on the processing

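With DESeq2 or its size factors, at least 10 counts in every library and a GC and length trend removed, the counts of members called in WM164 and SKMEL28 stayed within 1.5 times. The GFP-level counts, taken over both directions, did so too, apart from WM164 against SKMEL28 on TPM (47 members with either pseudocount). These totals hide direction: for WM164 against A375 most called members were higher on CPM and lower on TPM, as given above. Requiring a 2-fold change left 0 higher and 0 lower in WM164 and 1 and 0 in SKMEL28. With no filter WM164 had 0 higher and A375 1. One model for all 18 libraries gave 0 higher and 22 lower in WM164 and 7 and 7 in SKMEL28. On TPM with a pseudocount of 1 or 0.1, WM164 had 2 lower and SKMEL28 1 higher, the medians were -0.07 and -0.08 in WM164, -0.13 with both in SKMEL28 and -0.10 and -0.11 in A375, 4 responses differed between WM164 and SKMEL28 and 1 between WM164 and A375, and SDHA in WM164 was at 0.01. The medians of all genes moved alike (0.14 and -0.14 in WM164 and SKMEL28 with a pseudocount of 1). Centred TPM gave 0 higher and 23 lower in WM164, 7 and 4 in SKMEL28, 13 and 4 differing responses, and ATP5F1B at 0.01 in SKMEL28. Between SKMEL28 and A375, DESeq2 called 3 differing responses and the stricter count minimum 2. The causes were not tested.

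Leaving out 1 library gave 0 to 1 higher and 30 to 51 lower in WM164, 12 to 18 higher and 6 to 15 lower in SKMEL28, and 0 to 1 higher in A375. Differing responses ranged from 9 to 29 between WM164 and SKMEL28 (9 without SKMEL28 GFP replicate 2, 10 without WM164 GFP replicate 1, 11 without WM164 MAFG replicate 1, and 13 without WM164 GFP replicate 3, WM164 MAFG replicate 2 or SKMEL28 MAFG replicate 2), from 4 to 14 between WM164 and A375 (4 without WM164 GFP replicate 1, WM164 MAFG replicate 1 or A375 GFP replicate 1, 5 without WM164 GFP replicate 3, WM164 MAFG replicate 2 or A375 MAFG replicate 3, 6 without SKMEL28 GFP replicate 1 or MAFG replicate 2) and from 0 to 2 between SKMEL28 and A375.

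With a replicate block, 1 member was higher and 45 lower in WM164 (42 of them shared), 20 and 14 in SKMEL28 and 0 in A375, and none of the 58 results for named members changed its call. Deviations of same-numbered libraries correlated at -0.04 to 0.03, so the numbers do not pair the samples, and not every library correlated best with its own number. Depth limits what can be said of the rare isoforms and copies.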
